A study of Mus musculus with 8 samples.

Results

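*Mustn1*, *Mybpc1* and *Klhl40* are 3 genes best known from skeletal muscle that were measured here in the mRNA bound to ribosomes of cortical PV+ interneurons. They are 3 of the 45706 genes in the files and were picked by name, because the study ranked them among the genes with higher levels after CNO. The comparison of CNO with vehicle therefore chose them, and their values in it are given as a description without a test. All 3 passed the filter on low counts, together with 17495 genes in all. Each of the 3 had a higher mean with CNO than with vehicle, 3.09-fold for *Mustn1*, 1.67-fold for *Mybpc1* and 1.55-fold for *Klhl40*. Of the 3, *Mustn1* alone had normalized counts that did not overlap between the groups. Over all genes tested, 0.789% were higher with CNO without overlap, and 2.42% did not overlap in either direction. In TPM, a unit explained below, the groups of *Klhl40* did not overlap either, but no share over all genes was computed in TPM. *Mustn1* alone was also separate relative to the PV+ interneuron markers of the same sample. That scale was added after seeing the data, and no share over all genes was computed for it.

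All mice were PvalbFlp/+;Neurod6Cre/+ and were infected at postnatal day 1 with an AAV that carries HA-RPL10a and myc-hM3Dq in a flox-fdio cassette, and they were studied between postnatal days 42 and 70. The cassette is turned on by Flp, here made from the *Pvalb* locus, and off by Cre, and it yields a ribosomal protein with an HA tag and hM3Dq, an engineered receptor through which CNO excites neurons. The viral promoter was that of human synapsin, which is active in neurons. The CNO group (4 samples) received 1 mg/kg CNO in 5 injections over about 48 h, and the vehicle group (4 samples) received the same injections without CNO. Each sample pooled primary somatosensory cortex from 4 brains, so that single animals cannot be told apart. A group without the virus is not part of these data, and both groups carry the receptor. Because no label ties samples to litters or days, the spread between samples may be partly technical.

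MUSTN1 is a small nuclear protein of the musculoskeletal system that is found in muscle, cartilage and bone during development and repair, and its mRNA also occurs in the smooth muscle cells of blood vessels. MYBPC1 is the slow skeletal form of myosin binding protein C, which lies along the thick filament of the sarcomere and modulates the sliding of actin and myosin. In the cortex its mRNA is known as a marker of a subset of VIP interneurons. KLHL40 is a BTB-Kelch protein that connects to the ubiquitin ligase CUL3 and stabilizes the thin filament proteins nebulin and leiomodin 3, and its loss causes nemaline myopathy. Parvalbumin itself, the protein that names the PV+ interneurons, is also abundant in fast-twitch muscle fibres.

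*Mustn1* (ENSMUSG00000042485) lies on chromosome 14 of GRCm38 from 30879200 to 30881610 on the plus strand, with 1 annotated transcript of 3 exons. *Mybpc1* (ENSMUSG00000020061) lies on chromosome 10 from 88518279 to 88605152 on the minus strand, with 6 annotated transcripts, 4 of them protein-coding. *Klhl40* (ENSMUSG00000074001) lies on chromosome 9 from 121777607 to 121783818 on the plus strand, with 2 annotated transcripts, 1 of them protein-coding. The bases before the start of each gene are shown because the FOS and JUN transcription factors, which bind the AP-1 motif, include *Fos* and *Fosb*, whose levels were higher in every CNO sample than in any vehicle sample. The sequences come from RefSeq on GRCm38.p6, each read 5′ to 3′ on the strand of its gene and ending before the first exon, and capitals mark the AP-1 motif TGANTCA. They span chr14:30879007-30879199, chr10:88605153-88605402 and chr9:121777357-121777606 in the order shown.
Mustn1: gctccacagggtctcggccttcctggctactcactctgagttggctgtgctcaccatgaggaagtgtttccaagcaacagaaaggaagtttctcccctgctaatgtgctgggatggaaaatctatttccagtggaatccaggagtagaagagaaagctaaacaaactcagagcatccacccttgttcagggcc
Mybpc1: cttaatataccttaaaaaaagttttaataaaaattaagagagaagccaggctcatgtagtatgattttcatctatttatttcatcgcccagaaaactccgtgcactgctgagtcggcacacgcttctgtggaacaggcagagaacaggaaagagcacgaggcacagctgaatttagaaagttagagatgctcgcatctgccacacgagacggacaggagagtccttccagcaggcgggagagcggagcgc
Klhl40: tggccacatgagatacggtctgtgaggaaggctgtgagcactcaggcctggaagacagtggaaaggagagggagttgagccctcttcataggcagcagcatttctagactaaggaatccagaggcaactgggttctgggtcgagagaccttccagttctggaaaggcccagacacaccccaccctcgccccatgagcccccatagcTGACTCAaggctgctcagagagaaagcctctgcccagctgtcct

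The search covered 250 bases before each RefSeq start on both strands. *Klhl40* held 1 match to TGANTCA, at -44 to -38 from the start, and *Mustn1* and *Mybpc1* held 0. Of 32536 distinct windows of the same length before all RefSeq genes, 6.73% held this motif. The E-box CANNTG, which myogenic factors and many others bind, matched 3 times in *Klhl40*, 2 times in *Mybpc1* and 0 times in *Mustn1*, against 66.2% of all windows with at least 1 match. The cyclic AMP response element TGACGTCA, the TEAD motif CATTCC, the CArG box and the MEF2 site had 0 matches in all 3 genes, and 1.56%, 12.6%, 1.48% and 2.89% of all windows held them. No match says only that these letters are not in these windows. For *Mustn1*, 57 of the bases searched belong to an annotated exon and are not shown.

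The authors deposited estimated counts of reads per gene and TPM, a unit that corrects the counts for the length of the transcripts and gives every sample one and the same sum. Totals of counts ranged from 44064161 to 49413273 per sample, so that 3 counts, the smallest level taken as measurable, equal 0.0607 to 0.0681 CPM, the count relative to the library total. Only counting error enters this floor. *Fos*, a gene that neurons express when their activity rises, had 32.2 to 69.5 normalized CPM in the CNO samples and 11.3 to 15.8 in the vehicle samples. *Pvalb* and the other markers of PV+ interneurons were all measured, 12 of 12, but markers of pyramidal cells were also present, 12 of 12. Vehicle replicate 1 stood apart, with a mean of the PV+ interneuron markers of 5.67 log2 CPM against 6.93 to 7.20 in the other vehicle samples. Its pyramidal cell markers were the highest of the 8 samples, with a mean of 5.55 log2 CPM against 5.08 to 5.40 in the others. In ribosome pulldowns such as these, fewer cells of a type, less RNA per cell and the yield of the pulldown cannot be told apart. CNO replicate 4 had the highest PV+ interneuron markers of the 8 samples, at 7.61.

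*Mustn1* had 8.71, 8.65, 9.92 and 11.8 TPM in CNO replicates 1 to 4. In vehicle replicates 1 to 4 it had 1.34, 3.25, 4.50 and 4.04 TPM. The lowest CNO sample was therefore above the highest vehicle sample, and vehicle replicate 1 was the lowest of all. The reads behind these values numbered 180 to 271 in the CNO samples and 25 to 101 in the vehicle samples. All were above the floor of 3, but vehicle replicate 1 rests on only 25 reads. The mean level was 4.58 ± 0.836 normalized CPM (SD, n = 4) in the CNO group, against 1.48 ± 0.663 (SD, n = 4) after vehicle. The log2 fold change from the model fitted to all genes was 1.63 (standard error 0.32), the 7th highest of the 15173 tested genes with a mean TPM above 1.

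*Mybpc1* had 36.0, 28.8, 41.3 and 66.0 TPM in CNO replicates 1 to 4 and 10.7, 28.1, 31.7 and 28.6 TPM in vehicle replicates 1 to 4. The groups overlapped, because CNO replicate 2 lay below vehicle replicate 3, and 3 of the 4 CNO samples were above every vehicle sample. Vehicle replicate 1 was again the lowest sample and CNO replicate 4 the highest. The counts were 1578 to 3710 with CNO and 637 to 2078 with vehicle, so that counting error was small beside the spread between samples. The mean was 52.8 ± 18.8 normalized CPM (SD, n = 4) in the CNO group, against 31.6 ± 12.3 (SD, n = 4) after vehicle. The log2 fold change was 0.74 (standard error 0.32).

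*Klhl40* had 11.9, 10.1, 10.6 and 18.0 TPM in CNO replicates 1 to 4 and 8.30, 8.74, 9.97 and 7.47 TPM in vehicle replicates 1 to 4. On this scale all CNO samples were above all vehicle samples, and no share over all genes was computed for it. CNO replicate 2, however, exceeded vehicle replicate 3 by little. In normalized CPM the same pair changed places, at 10.1 for CNO replicate 2 and 10.7 for vehicle replicate 3, and the groups overlapped. CNO replicate 4 was far above the others, whereas vehicle replicate 1 lay within the range of the vehicle samples. The mean was 13.7 ± 4.50 normalized CPM (SD, n = 4) in the CNO group, against 8.83 ± 1.36 (SD, n = 4) after vehicle. The log2 fold change was 0.63 (standard error 0.21), just inside the 1.5-fold cut-off of the study, which is 0.58 on the log2 scale.

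**Figure D1:**
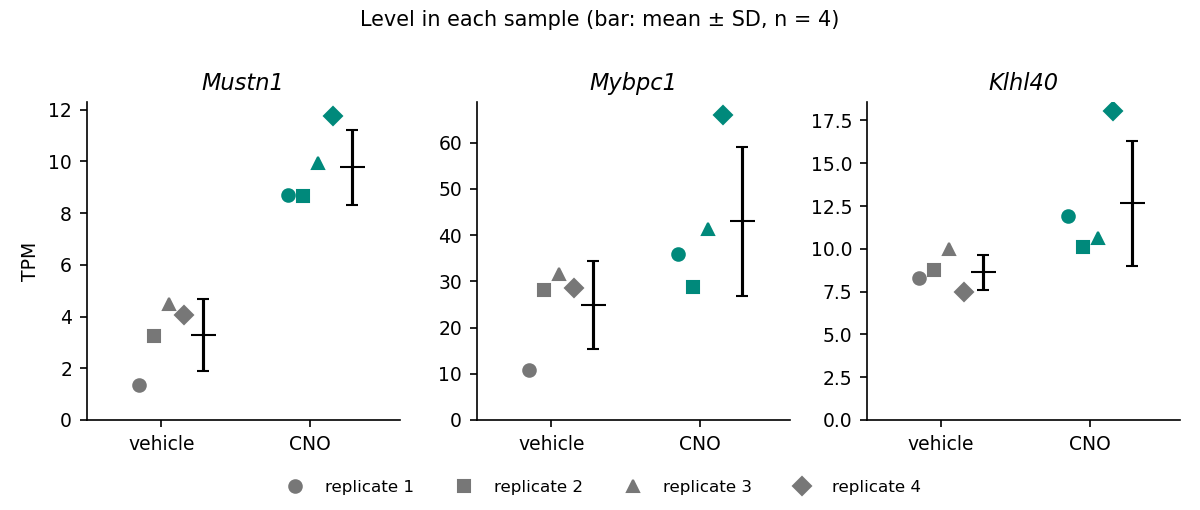
TPM of *Mustn1*, *Mybpc1* and *Klhl40* in each of the 4 vehicle samples (grey) and 4 CNO samples (green). Symbols show replicates and black bars the mean ± SD of each group; *Mustn1* lies between 8.65 and 11.8 TPM with CNO and between 1.34 and 4.50 with vehicle.

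The number of members that did not overlap in normalized CPM was 1 of 3, and all 4 CNO samples were above all 4 vehicle samples in 0.789% of the genes tested (2.42% without overlap in either direction). With the cut-offs of the study (adjusted p under 0.05, change above 1.5-fold and mean TPM above 1), edgeR's quasi-likelihood test called 0 of the 3 members and 0% of all genes. The study's own fit, edgeR with robust dispersion, did call genes. At an unadjusted p under 0.05 the quasi-likelihood test had 716 genes, 4.09% of those tested, and 1.44% were higher with CNO. The likelihood ratio test with robust dispersion called 1 member, *Mustn1*, where 0.0629% of genes were called higher. DESeq2's Wald test also called *Mustn1* and no other member, where 0.0514% of genes were called higher. A fitted change above 1.5-fold was found for 3 of 3 members and for 1.34% of all genes tested in the higher direction. Because the members were chosen from this contrast, nothing is read from these counts.

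By TPM, which allows levels to be compared between genes, *Mybpc1* was above *Klhl40* and *Klhl40* was above *Mustn1* in each of the 8 samples. With vehicle their means stood higher than those of 62.7%, 41.8% and 27.8% of the genes tested, in that order. The distances within this order differed between samples. *Klhl40* had 1.85 to 6.21 times the TPM of *Mustn1* in the vehicle samples and 1.07 to 1.53 times in the CNO samples. *Mybpc1* had 2.86 to 3.89 times the TPM of *Klhl40* in 7 samples and 1.29 times in vehicle replicate 1. The coefficient of variation over the vehicle samples was 44.9% for *Mustn1*, 38.9% for *Mybpc1* and 15.4% for *Klhl40*, against a median of 14.0% over the 15173 genes above 1 TPM on average. Without vehicle replicate 1 these values were 17.5%, 13.5% and 16.9%, against a median of 8.65%.

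The 3 genes differed in how they followed the PV+ interneuron markers. For each sample the average log2 CPM of these 12 genes was subtracted from the log2 CPM of the gene, a scale added after seeing the data. The 12 genes were *Pvalb*, *Gad1*, *Gad2*, *Slc32a1*, *Syt2*, *Kcnc1*, *Kcnc2*, *Lhx6*, *Erbb4*, *Tac1*, *Cox6a2* and *Nek7*. The vehicle samples entered the contrast that chose the genes, which favours genes low in any of them. Their spread is therefore given as a description. In these samples *Mybpc1* lay at -1.84, -1.86, -1.77 and -1.95 on the marker scale in replicates 1 to 4. Its spread over the 4 samples shrank from an SD of 0.71 on the log2 scale to 0.08, and only 12 of the 15173 genes with a mean TPM above 1 had a smaller spread on the marker scale. *Mustn1* lay at -6.41, -6.33, -6.10 and -6.24, and its SD shrank from 0.82 to 0.13, with 71 genes having a smaller spread. For most genes the opposite held, since the median SD of all these genes was 0.20 before and 0.70 after the subtraction, and the spread became smaller in 8.77% of them. *Klhl40* was among the majority, with an SD of 0.22 before and 0.65 after. Its level in vehicle replicate 1 was lower by 0.17 log2 units than the other vehicle samples on average, whereas that of *Mybpc1* was lower by 1.38, that of *Mustn1* by 1.59 and that of the marker mean by 1.40.

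These spreads rest largely on vehicle replicate 1. Without it the SD of *Mybpc1* was 0.19 before and 0.09 after the subtraction, and 14.7% of genes had a smaller spread on the marker scale. For *Mustn1* the values were 0.25 and 0.12, with 23.3% of genes smaller, and for *Klhl40* 0.24 and 0.23. In the CNO samples the SD of *Mybpc1* went from 0.51 to 0.24, that of *Klhl40* from 0.43 to 0.22 and that of *Mustn1* from 0.25 to 0.22.

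Between the groups, *Mustn1* stayed apart on the marker scale, at -5.34, -4.80, -4.98 and -5.08 in CNO replicates 1 to 4, each above all vehicle samples. The difference of the group means was 1.22 on the log2 scale. *Mybpc1* lay at -1.87, -1.68, -1.47 and -1.32 in the CNO samples, and the difference of the means was 0.26, with CNO replicate 1 within the range of the vehicle samples. *Klhl40* lay at -3.70, -3.40, -3.70 and -3.27 with CNO and at -2.66, -3.75, -3.78 and -4.16 with vehicle. Its groups overlapped on this scale, vehicle replicate 1 being the highest sample, and the means differed by 0.07. With an index of PV+ interneuron minus pyramidal cell markers as a covariate of the model, the log2 fold changes were 1.20 (standard error 0.20) for *Mustn1*, 0.20 (standard error 0.11) for *Mybpc1* and 0.40 (standard error 0.19) for *Klhl40*. The part of PV+ interneuron RNA in the differences was not tested beyond these values.

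**Figure D2:**
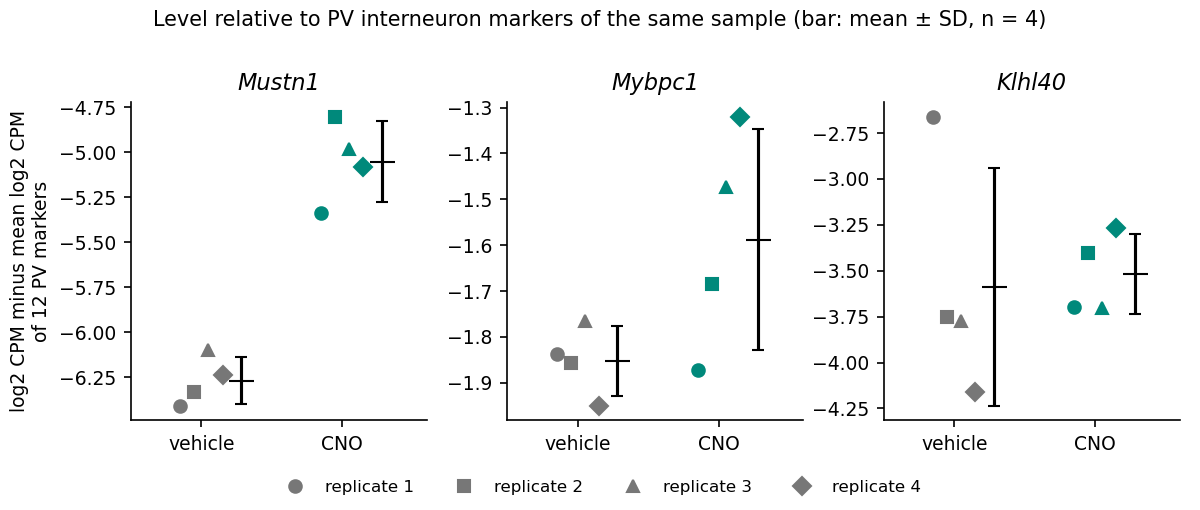
Log2 CPM of each gene minus the average log2 CPM of 12 PV+ interneuron markers of the same sample, for 4 vehicle samples (grey) and 4 CNO samples (green), with black bars for the mean ± SD. *Mustn1* stays separate, from -6.41 to -6.10 with vehicle and from -5.34 to -4.80 with CNO, whereas *Mybpc1* and *Klhl40* overlap; the 3 vertical axes differ in range.

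The log2 fold change of *Mustn1* stayed above the 1.5-fold line in every setting tried, from 1.20 to 1.84, and was lowest with the marker index and highest without vehicle replicate 3. That of *Mybpc1* was below the line without CNO replicate 4 (0.49), without vehicle replicate 1 (0.49), with robust dispersion (0.55), with the marker index (0.20) and relative to the markers (0.26). That of *Klhl40* was below it in more settings, among them without CNO replicate 4 (0.37), without vehicle replicate 4 (0.57), with robust dispersion (0.50), with library size only (0.57) and with limma on TPM (0.48 and 0.52). Without vehicle replicate 1 it stood at a 1.499-fold change, also just below the cut-off. Directions were kept in all settings for the 3 genes.

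**Figure D3:**
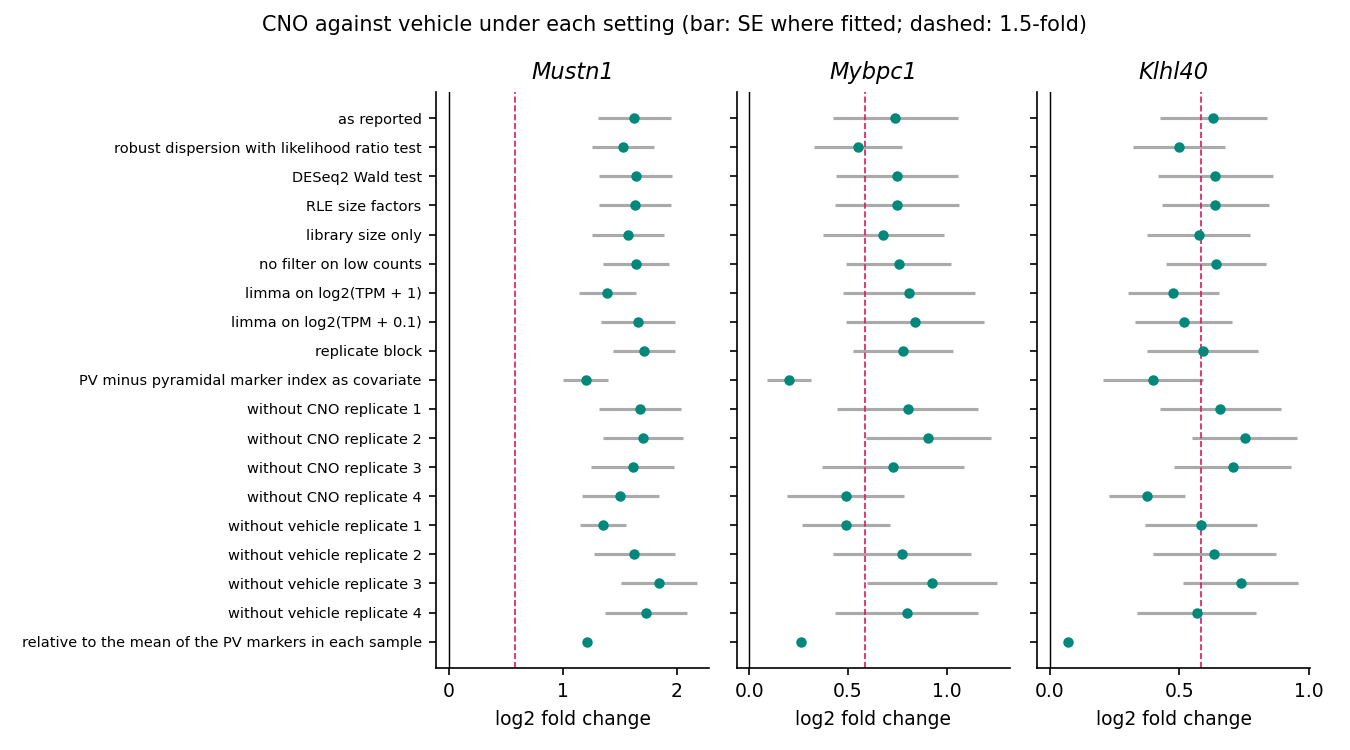
Log2 fold change of each gene, CNO against vehicle, under each setting of the analysis, with bars for the standard error where a model was fitted and a dashed line at 1.5-fold. All points of *Mustn1* lie right of the line (1.20 to 1.84), while points of *Mybpc1* (0.20 to 0.93) and *Klhl40* (0.07 to 0.75) lie on both sides of it; the horizontal axes differ in range.

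For each member the 5 genes with the most similar pattern over the 8 samples were named by the root mean square difference of log2 CPM, each gene taken relative to its own mean. All 8 samples come from the same comparison, so genes that differ between the groups are favoured. For *Mustn1* these were *Fam150b*, which encodes a ligand of the receptor ALK (0.38), *Gpnmb*, a membrane glycoprotein (0.39), *Th*, the rate-limiting enzyme of catecholamine synthesis (0.40), *Lgals1*, a galectin (0.41), and *Dnmt3l*, a cofactor of DNA methyltransferases (0.43). The median over all genes was 1.02. For *Mybpc1* they were *Lgals1* (0.14), *B230312C02Rik* (0.14), *Lgi2*, which encodes a secreted leucine-rich protein (0.14), *Rpl10a*, the ribosomal protein gene that the virus also supplies in tagged form (0.15), and *Sh3bgr* (0.16), against a median of 0.68. *Rpl10a* had a log2 fold change of 0.47. For *Klhl40* they were *Ccdc122* (0.14), *Csrnp1* (0.18), *Fabp3-ps1* (0.18), *Stk40* (0.18) and *Ccdc183* (0.19), against a median of 0.45. Between members the difference was 0.51 for *Mustn1* and *Mybpc1*, 0.42 for *Mybpc1* and *Klhl40* and 0.74 for *Mustn1* and *Klhl40*.

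The relatives and filament partners of MYBPC1 were almost all at low levels. Of 11 genes of the myosin binding protein C family, the M-band and the thick filament, 8 were tested, 1 had a mean TPM above 1, and 2 had positive and 6 negative log2 fold changes with a median of -0.24 (-0.43 without CNO replicate 2 and -0.078 without CNO replicate 4). Over all genes tested the median was 0.00, with 8810 positive and 8685 negative. The fast skeletal form *Mybpc2* had 0.30 to 0.52 TPM over the 8 samples, and the cardiac form *Mybpc3* had 0.15 to 0.53 TPM, both far below the 10.7 to 66.0 TPM of *Mybpc1*. The titin gene *Ttn* had 0.02 to 1.00 TPM. *Igfn1*, the most abundant of the list, averaged 6.07 TPM, with -0.20 (standard error 0.19) as its log2 fold change. In edgeR's quasi-likelihood test 0 of the 8 passed an adjusted p of 0.05. *Mybph* alone had an unadjusted p under 0.05 (edgeR adjusted p = 0.817). *Mybph*, which encodes myosin binding protein H, had 0.06 to 0.47 TPM with CNO and 0.54 to 0.80 TPM with vehicle, the opposite direction to *Mybpc1*, at a log2 fold change of -1.18 (standard error 0.50). It no longer had an unadjusted p under 0.05 in 5 of the 17 alternatives, which were the marker index and the fits without CNO replicate 3, CNO replicate 4, vehicle replicate 3 or vehicle replicate 4.

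Of 8 partners of KLHL40, the general components of the CUL3 ligase were abundant and the muscle substrates were scarce. *Cul3*, the scaffold of the ligase, averaged 204 TPM, with 0.20 (standard error 0.12) as its log2 fold change, and *Rbx1*, its RING subunit, averaged 237 TPM, with 0.25 (standard error 0.20). *Neb*, which encodes nebulin, had 0.24 to 0.48 TPM with CNO and 0.40 to 0.83 TPM with vehicle, and its log2 fold change was -0.60 (standard error 0.28). *Lmod3*, for leiomodin 3, had at most 17 counts in any sample and *Klhl41*, the muscle paralogue of *Klhl40*, at most 21, so that neither passed the filter, and *Lmod2* was listed at 0 counts in all samples. *Nebl*, for nebulette, averaged 54.1 TPM, with 0.23 (standard error 0.12), and *Nrap*, for a nebulin-related anchoring protein, had 0.37 TPM and 0.00 (standard error 0.41). The median of the 5 tested genes was 0.20, and 0 passed an adjusted or an unadjusted p of 0.05 in the quasi-likelihood test. *Neb* had an unadjusted p under 0.05, lower with CNO, in 4 of the 17 alternatives (robust dispersion, limma on TPM with 1 or 0.1 added, and without vehicle replicate 3), and *Nebl*, higher, in 1 (without CNO replicate 2).

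The BTB-Kelch family as a whole was expressed and showed small differences. Of 41 genes other than *Klhl40*, 39 were tested, 36 had a mean TPM above 1, and 19 had positive and 20 negative log2 fold changes, from -0.35 to 0.19 with a median of 0.00. *Klhl40*, at 0.63, lay outside this range, as its choice by this contrast favours. The most abundant were *Ivns1abp* (175 TPM, log2 fold change 0.03), *Klhl22* (117 TPM, -0.04), *Klhl2* (103 TPM, -0.13), *Klhl7* (68.2 TPM, 0.07) and *Keap1*, the sensor of oxidative stress (64.7 TPM, -0.02). In edgeR's quasi-likelihood test 0 passed an adjusted p of 0.05. *Klhl23* alone had an unadjusted p under 0.05 (log2 fold change -0.25, edgeR adjusted p = 0.817), a result that was lost in 10 of the 17 alternatives, among them DESeq2, the marker index and the fits without vehicle replicate 1 or CNO replicate 4.

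Many genes that define skeletal muscle had few counts. Of 44 genes of the sarcomere, calcium handling and energy supply of muscle, 27 passed the filter and 17 did not, each of the latter with at most 24 counts in any sample. The muscle creatine kinase gene *Ckm* had at most 13 counts, the calcium pump gene *Atp2a1* at most 15 and the fast troponin genes *Tnnc2* and *Tnni2* at most 6 each. Of the 27 tested, 10 had positive and 17 negative log2 fold changes, with a median of -0.08. Without CNO replicate 4 these numbers were 14 and 13. In edgeR's quasi-likelihood test 0 passed an adjusted p of 0.05. At an unadjusted p under 0.05 were the cardiac troponin gene *Tnni3*, higher with CNO (log2 fold change 0.90, edgeR adjusted p = 0.817), and the myosin light chain gene *Myl4*, lower (-0.35, edgeR adjusted p = 0.817). Neither had an unadjusted p under 0.05 with the marker index, without vehicle replicate 1 or without CNO replicate 4, and *Myl4* also not without vehicle replicate 2.

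A few muscle genes were at levels like those of *Mybpc1*, among them the myosin light chain gene *Myl1* and *Tcap*, for the titin cap. *Myl1* had 55.4, 40.8, 87.1 and 80.1 TPM in CNO replicates 1 to 4 and 22.5, 50.9, 64.4 and 68.2 TPM in vehicle replicates 1 to 4. *Tcap* had 38.0, 28.2, 41.8 and 53.9 TPM with CNO and 21.2, 35.2, 38.3 and 36.8 TPM with vehicle. Both were lowest in vehicle replicate 1, as *Mybpc1* was, and their vehicle SD shrank on the marker scale, from 0.81 to 0.13 for *Myl1* and from 0.46 to 0.26 for *Tcap*. Relative to the markers their group means differed by -0.08 and -0.15. Of the 73 genes of the muscle, Kelch and FOS and JUN lists with a mean TPM above 1, 7 had a smaller spread on the marker scale (9.59%, near the 8.77% of all genes), *Rbx1*, *Klhl13*, *Klhl14*, *Myl1*, *Tnni3*, *Tcap* and *Des*, which were counted after their values were seen. *Pygm*, *Myl4* and *Actn2* followed in level within the sarcomere list, at 28.1, 19.1 and 11.3 TPM, with log2 fold changes from -0.44 to -0.11.

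The factors that switch on the muscle programme were likewise scarce. *Myod1* had at most 14 counts in any sample, *Myog* 2, *Myf5* 1, *Myf6* 5 and *Pax7* 2. Of 21 names listed for this group, 17 were found in the files and 8 were tested. The tested genes were led by the MEF2 factors, which neurons also use, *Mef2c* (655 TPM, log2 fold change -0.08), *Mef2d* (93.7 TPM, 0.01) and *Mef2a* (67.6 TPM, 0.09), with *Srf*, for serum response factor, at 12.5 TPM and 0.10. Their median log2 fold change was 0.04, and 0 had an adjusted or an unadjusted p under 0.05 in the quasi-likelihood test, in DESeq2 or in the likelihood ratio test.

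Of the 7 genes of the FOS and JUN family, 3 had an unadjusted p under 0.05, and all 3 were higher with CNO. *Fos* had a log2 fold change of 1.93 (adjusted p = 0.0520 from the quasi-likelihood test), *Fosb* of 1.88 (adjusted p = 0.123) and *Fosl2* of 0.69 (adjusted p = 0.817), and without vehicle replicate 1 or CNO replicate 4 the same 3 genes had an unadjusted p under 0.05. The likelihood ratio test with robust dispersion and DESeq2 each had 2 of the 7 at an adjusted p under 0.05. *Jun* had 0.02, *Junb* 0.28 and *Jund* 0.22. On the marker scale *Fos* differed by 1.36 between the group means, beside the 1.22 of *Mustn1*, but *Fos* did not follow the markers in the vehicle samples, where its SD was 0.21 before and 0.75 after the subtraction.

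**Figure D4:**
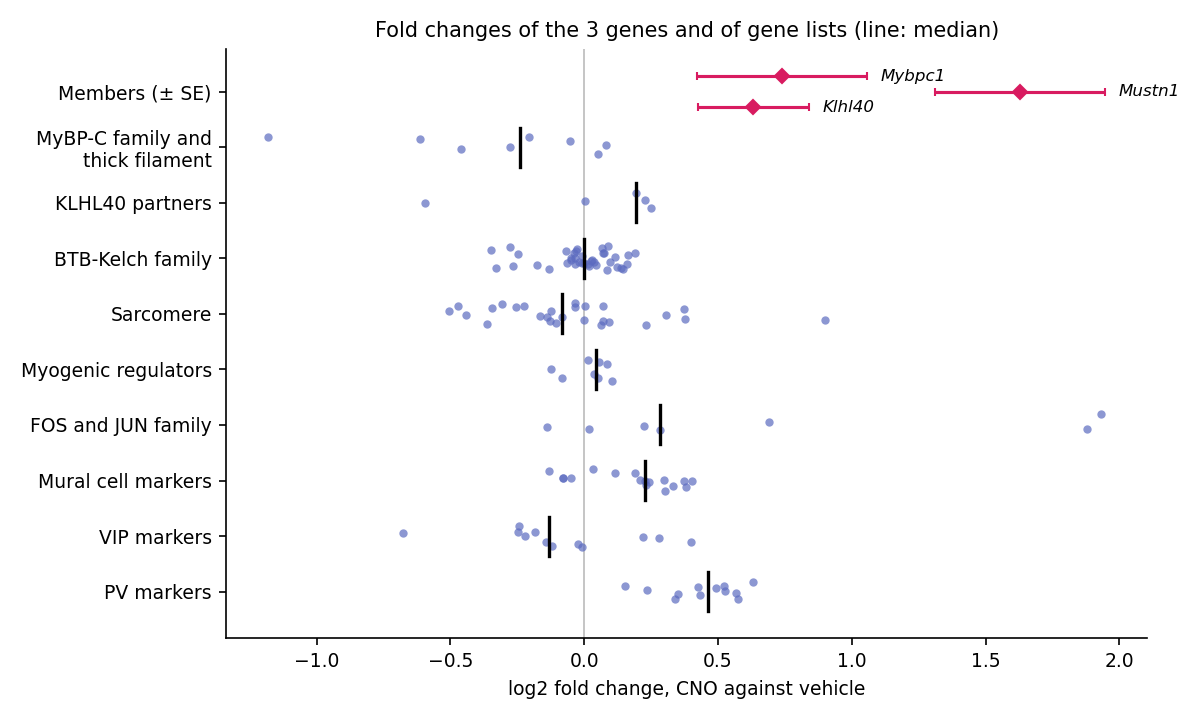
Log2 fold change, CNO against vehicle, of *Mustn1*, *Mybpc1* and *Klhl40* (red diamonds with standard errors) and of each tested gene of the lists (blue points, scattered vertically to avoid overlap), with a black line at the median of each list. *Mustn1* at 1.63 lies beside *Fos* and *Fosb*, while the medians of the muscle lists run from -0.24 to 0.20.

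Markers of other cells known to express these genes were compared next. Of 18 markers of smooth muscle cells and pericytes of vessels, 17 were tested, and *Actg2* had at most 4 counts. Their summed level was 69.9 to 163 TPM with CNO and 68.5 to 134 TPM with vehicle. Their mean log2 CPM was 1.25, 2.15, 2.39 and 1.75 in CNO replicates 1 to 4 and 1.21, 1.52, 2.09 and 2.08 in vehicle replicates 1 to 4 (two-sided exact permutation test, p = 0.571, adjusted p = 0.893 over 10 lists). Vehicle replicate 1 was the lowest of the 8 samples here too. In vehicle replicates 1 to 4 *Mustn1* had 1.34, 3.25, 4.50 and 4.04 TPM, the same order as these markers. That order was not particular to them. The PV+ interneuron markers (5.67, 6.93, 7.20 and 7.10 log2 CPM) and the endothelial cell markers (2.35, 2.44, 3.09 and 2.87 log2 CPM) had it too. In CNO replicates 1 to 4 *Mustn1* had 8.71, 8.65, 9.92 and 11.8 TPM, an order unlike that of the smooth muscle cell and pericyte markers. *Acta2*, which defines smooth muscle, averaged 18.9 TPM, was lowest in vehicle replicate 1 (4.26) and had 0.24 (standard error 0.53) as its log2 fold change. The part of vessel cells in the level of *Mustn1* was not tested. Of the 17 genes 13 had positive and 4 negative log2 fold changes, with a median of 0.23, and without vehicle replicate 1 these numbers were 10 and 7.

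All 12 markers of VIP interneurons were tested, and their summed level was 132 to 171 TPM with CNO and 183 to 226 TPM with vehicle. These sums did not overlap between the groups, but the most abundant genes weigh most in them. The sums were not tested, and no share over all genes was computed for them. Of the 12 genes, 3 had positive and 9 negative log2 fold changes, with a median of -0.13. *Vip* itself averaged 20.8 TPM, with -0.18 (standard error 0.11) as its log2 fold change. The mean log2 CPM of the list was 1.72 to 2.19 with CNO and 2.03 to 2.22 with vehicle (two-sided exact permutation test, p = 0.629, adjusted p = 0.893). Of the list, *Penk* and *Cxcl14* had an unadjusted p under 0.05, both lower with CNO (log2 fold changes -0.68 and -0.22, adjusted p = 0.817 each from the quasi-likelihood test). *Penk* kept it in all 17 alternatives, whereas *Cxcl14* lost it in 12, including 7 of the 8 fits that leave out a sample. In vehicle replicate 1, where *Mybpc1* was lowest, the VIP marker mean was 2.09, within the range of the other vehicle samples.

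The PV+ interneuron markers had positive log2 fold changes in 12 of 12 genes, with a median of 0.46, and their average log2 CPM was 7.24 ± 0.366 (SD, n = 4) in the CNO group, against 6.73 ± 0.710 (SD, n = 4) after vehicle. This difference of 0.52 was not larger than the spread between samples (two-sided exact permutation test, p = 0.229, adjusted p = 0.571), and it was 0.16 without vehicle replicate 1. The smallest p that this exact test allows is 0.0286, which becomes 0.286 when 1 list alone of the 10 reaches it, so that a single list could not have passed an adjusted p of 0.05. The lists for endothelial cells, fibroblasts, SST interneurons, pyramidal cells, astrocytes, oligodendrocytes and microglia differed by -0.22 to 0.16 on the log2 scale.

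**Figure D5:**
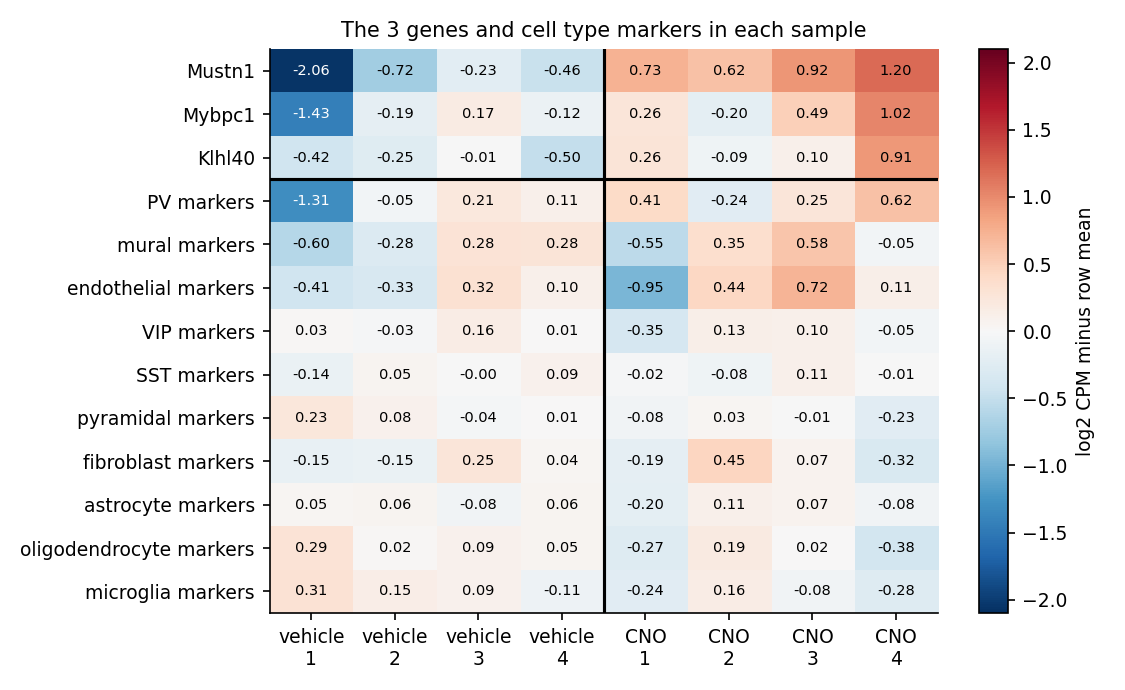
Log2 CPM of the 3 genes and mean log2 CPM of 10 marker lists in each of the 8 samples, each row relative to its own mean (blue lower, red higher). *Mustn1*, *Mybpc1* and the PV+ interneuron markers are all lowest in vehicle replicate 1 (-2.06, -1.43 and -1.31), as are the mural markers (-0.60), while the VIP markers are at 0.03 there.

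Genes that lie next to the members were examined because reads of a neighbour can be assigned to a member. *Tmem110* ends 1989 bases before *Mustn1* on the same strand and had 23.0 to 32.8 TPM in the 8 samples, with 0.01 as log2 fold change (standard error 0.09). *Itih3*, on the other side, had -0.07 (standard error 0.21). None of the 1206 stretches of 31 bases in the *Mustn1* transcript occurs in transcripts of another gene. *Hhatl* lies 197 bases beyond *Klhl40* on the opposite strand and averaged 13.7 TPM, with 0.23 as log2 fold change (standard error 0.14). *Zfp651*, before *Klhl40*, had 0.11 (standard error 0.09). *Chpt1*, the nearest tested gene to *Mybpc1*, had -0.01 (standard error 0.09). Further away, *Sycp3* had 0.81 (standard error 0.33, adjusted p = 0.817) and the pseudogene *Gm4925* 0.68 (standard error 0.26, adjusted p = 0.817), both at low levels of 2.45 and 1.19 TPM. Of the other neighbours, *Sfmbt1*, *Nek4*, *Spcs1*, *Gnptab*, *Arl1*, *Utp20*, *E530011L22Rik*, *Nktr*, *Ccdc13* and *Higd1a*, had log2 fold changes between -0.22 and 0.19.

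A pair of unconfirmed gene models on the opposite strand overlap members in the annotation used here. *Gm47108* covers 540 of the 2501 exon bases of *Klhl40*, and 20.6% of the 31-base stretches of its transcripts are shared with it. *Gm48752* covers 252 of the 4527 exon bases of *Mybpc1*, with 4.82% shared. These models were not analysed here, and whether the counting used strand is not given in the sources used here. The estimated counts of all 3 members were within 0.01 of whole numbers in all 8 samples.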

How the data were processed

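Ribosome-bound mRNA was sequenced in 4 CNO and 4 vehicle samples. Per the study's methods and the submitters' processing notes, reads were checked with FastQC, trimmed with Trim Galore, aligned with STAR to GRCm38 and quantified with Salmon and tximport, with tool versions not given in the sources used here. The authors deposited estimated counts per gene without normalization or filter, and the deposited TPM values share 1 sum. Counts were rounded. The filter removed genes that had fewer than 10 counts in at least 4 samples, and TMM-normalized counts were compared by the quasi-likelihood test of edgeR 4.0.16 in R 4.3.3 with Benjamini-Hochberg adjustment over all genes. DESeq2 1.42.0, limma 3.58.1 on log2 TPM (with 1 or 0.1 added), robust dispersion with the likelihood ratio test, other size factors, no filter, a marker index, a replicate block and leaving out each sample were alternatives. Log2 CPM used a prior count of 2. Marker lists were compared by exact permutation over the 70 assignments of samples. The test was tried on simulated counts. The members and lists were chosen with earlier results of these data known. Named genes were the members, their neighbours (1 of them is not reported here), the 5 most similar genes, and from each list the 5 most abundant and those with an unadjusted p under 0.05. Names not found in the files were *Mrtfa* and *Mrtfb* (listed also as *Mkl1* and *Mkl2*), *Mymk* and *Mymx*. Annotation came from GENCODE mouse release M21 on GRCm38, and protein sequences were not used here.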

Additional observations from a re-analysis of the deposited data

Results flagged for a closer look

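The mean of the 8 astrocyte markers in the vehicle group had a sample far from the others, with a ratio of gap to range of 0.888, above Dixon's critical value for 4 samples. Vehicle replicate 3 was at 5.38 log2 CPM and the other vehicle samples were at 5.51 to 5.52. In all, 26 groups of 4 samples were examined this way (3 genes and 10 marker lists in each treatment), and 1 had such a sample, where chance gives about 1 in 20. Those of *Mustn1*, *Mybpc1* and *Klhl40* had none, although the low vehicle replicate 1 came near the critical value for the PV+ interneuron marker mean (0.825), *Mybpc1* (0.775) and *Mustn1* (0.728).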

How the results depend on the processing

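The log2 fold changes of *Mustn1*, *Mybpc1* and *Klhl40* were positive in all settings. With each sample left out in turn they ranged from 1.36 to 1.84, from 0.49 to 0.93 and from 0.37 to 0.75. Relative to the PV+ interneuron markers, a scale chosen after seeing the data, that of *Klhl40* was 0.071. The quasi-likelihood fit made here called 0 genes, which is not the result of the study. The number of genes called was 12 with robust dispersion and the likelihood ratio test, 10 with DESeq2 and 4 without a filter. It was 0 to 2 with a sample left out (2 without CNO replicate 1), and the cause of these differences was not tested. At an unadjusted p under 0.05 the genes divided into 252 higher and 464 lower with TMM, 290 and 425 with RLE size factors, 129 and 736 with library size only, and 185 and 755 with limma on log2(TPM + 1). The median log2 fold change of the myosin binding protein C list was -0.43 to -0.078 with samples left out. That of the KLHL40 partners was -0.0075 and -0.0076 with limma on TPM (1 and 0.1 added) and 0.076 with the marker index. That of the BTB-Kelch family was -0.053 with library size only, -0.048 and -0.052 with limma on TPM, and -0.010 to 0.032 with samples left out. That of the sarcomere list was -0.17 to 0.0058 with samples left out. That of the myogenic regulators was -0.013 with library size only, -0.087 and -0.095 with limma on TPM (1 and 0.1 added), -0.0087 with the marker index and 0.0023 to 0.071 with samples left out. With samples left out the marker differences changed sign for mural cells (-0.017 to 0.37), VIP interneurons (-0.14 to 0.020), SST interneurons (-0.048 to 0.030), endothelial cells (-0.052 to 0.51), fibroblasts (-0.15 to 0.10) and astrocytes (-0.090 to 0.014), and for SST interneurons also with a prior count of 0.5 (-0.0060).

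Samples with the same replicate number were not treated as pairs. The deviations of same-numbered samples from their group means correlated across the 17495 genes at 0.03, -0.03, 0.16 and 0.24 for numbers 1 to 4, and genes are not independent replicates. Samples with different numbers correlated at -0.40 to 0.43, so these few values cannot decide whether the numbers mark pairs. With the replicate block the model called 0 genes, and the log2 fold changes were 1.72 for *Mustn1*, 0.78 for *Mybpc1* and 0.59 for *Klhl40*. Depth limits *Mustn1*, which rests on 25 reads in vehicle replicate 1.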
